A study of Mus musculus with 9 samples.

Results

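The 4 genes described here encode the RUNX transcription factor complex: Runx1, Runx2 and Runx3, which bind DNA, and Cbfb, their shared partner. They were chosen by name, and they are 4 of the 21887 protein-coding genes of the RefSeq table. Each gene was taken with 50 kb on either side, and every peak of 9 CUT&Tag peak lists in that span was listed. CUT&Tag uses a transposase tethered to an antibody to cut and tag DNA where a protein or histone mark lies. Cells came from bone marrow of C57BL/6 mice aged 3 months. The cKO mice carried Dekfl/fl with Tie2-Cre, a Cre that is active in endothelium as well as in blood cells, and the fl mice carried Dekfl/fl without Cre, so both had the floxed Dek allele. Dek encodes DEK, a chromatin-bound protein. H3K27ac, an acetylation mark of active promoters and enhancers, and H3K4me3, a mark of promoters, were profiled in cKO and fl LSK cells (Lin-Sca-1+c-Kit+, about 50000 cells), the gate that holds stem cells and early progenitors. H3K9ac, a second acetylation mark, was profiled in cKO and fl haematopoietic stem cells (HSC, the CD48-CD150+ part of that gate, about 20000 cells). DEK itself was profiled in 3 libraries of fl HSC.

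A RUNX protein recognises DNA through its Runt domain, and CBFβ, which does not touch DNA itself, stabilises that contact. Runx1 is needed for blood stem cells to arise in the embryo and is often altered in leukaemia. Runx2 is best known as the regulator of bone formation. Runx3 acts in T cells, natural killer cells and sensory neurons. Each Runx gene is known to be transcribed from a distal and a proximal promoter, called P1 and P2, which give proteins with different first residues. In mouse blood development the proximal promoter of Runx1 is used first, and the distal one becomes prominent later. The question put to the lists was which of these starts, and which sites away from starts, carried peaks in cKO and in fl cells.

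The lists held 16331 peaks for H3K27ac in cKO LSK cells and 10494 in fl LSK cells. H3K9ac had 3431 peaks in cKO HSC and 2172 in fl HSC, and H3K4me3 had 10159 in cKO and 10514 in fl LSK cells. The 3 DEK lists held 2054, 2111 and 6147 usable peaks. With 1 library per genotype and mark, a difference between cKO and fl had no replicate check, no test was possible, and genotype and library cannot be told apart. The lists carry no read counts, so depth is unknown. The Dek start had an H3K4me3 peak in both genotypes (fold 12.8 in cKO and 12.9 in fl), an H3K27ac peak in cKO alone (fold 10.6), and no H3K9ac or DEK peak. Peaks at this start do not check the deletion. Of 10 markers of the sorted stem and progenitor cells, 6 had H3K4me3 at a start in cKO and 7 in fl LSK cells, while Ly6a and Slamf1 had none in either. Of 5 B cell, 5 T cell and 5 endothelial markers, 0 had H3K4me3 at a start in either genotype. Of 5 erythroid markers 3 had it in cKO and 2 in fl cells, and of 5 stromal markers 0 in cKO and 1 in fl cells. Of 5 mature myeloid markers 1 had it in each genotype, S100a8 in cKO alone and Mpo in fl alone. Of all protein-coding genes, 42.9% had H3K4me3 at a start in both genotypes, 1.62% in cKO alone and 2.76% in fl alone. For H3K27ac, 6 of the 10 stem and progenitor markers were marked in cKO and 1 in fl cells. So were 1 of 5 endothelial markers (Kdr), 1 of 5 T cell markers (Cd4) and 2 of 5 stromal markers (Cxcl12 and Sp7) in cKO cells, against 0 of each in fl cells. Cd4 and Sp7 were searched at both gene ends. Of the erythroid markers 1 was marked in each genotype, and of the B cell and mature myeloid markers 0. Over all protein-coding genes, 21.7% had H3K27ac at a start in cKO alone, 0.361% in fl alone and 22.3% in both. For H3K9ac, Kdr was the only one of all these markers with a peak at a start. It was found in cKO HSC alone, with a fold of 2.89 at 88.7% of the list, beside 0.832% of all genes. The part of cells of these other types in the results was not tested.

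For the 4 genes, 6 starts are annotated in RefSeq on GRCm38.p6, the assembly behind the mm10 coordinates of the files. Runx1 (NCBI gene 12394) lies on the minus strand at chr16:92601466-92826074. Its first start is at 92826074 and its second, 128.745 kb further in, at 92697329. Runx2 (gene 12393) lies on the minus strand at chr17:44495987-44814797, with 1 start in the table, at 44814627. Runx3 (gene 12399) lies on the plus strand at chr4:135120645-135177990, with starts at 135120645 and 135152545, which are 31.9 kb apart. Cbfb (gene 12400) lies on the plus strand at chr8:105170674-105217989, with 1 start at its left end. The spans with flanks measured 324.609 kb for Runx1, 418.811 kb for Runx2, 157.346 kb for Runx3 and 147.316 kb for Cbfb.

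The 250 bases before each of the 4 starts that carried H3K4me3 are given here from RefSeq, 5′ to 3′ on the gene's strand, because these are the starts on which the comparison turns. Capitals mark CCAAT boxes and GC boxes (GGGCGG), each on either strand.
Runx1 first start (chr16:92826075-92826324, minus strand): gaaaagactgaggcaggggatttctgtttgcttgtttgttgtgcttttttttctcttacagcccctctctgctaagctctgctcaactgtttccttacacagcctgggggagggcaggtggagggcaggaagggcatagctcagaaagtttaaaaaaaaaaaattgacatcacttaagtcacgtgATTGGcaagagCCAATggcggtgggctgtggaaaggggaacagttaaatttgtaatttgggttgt
Runx1 second start (chr16:92697330-92697579, minus strand): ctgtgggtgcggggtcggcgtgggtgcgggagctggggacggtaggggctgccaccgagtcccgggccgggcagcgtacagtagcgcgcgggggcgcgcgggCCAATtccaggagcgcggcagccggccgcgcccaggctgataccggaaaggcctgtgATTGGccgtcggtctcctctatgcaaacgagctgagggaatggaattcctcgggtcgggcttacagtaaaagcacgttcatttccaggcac
Runx3 second start (chr4:135152295-135152544, plus strand): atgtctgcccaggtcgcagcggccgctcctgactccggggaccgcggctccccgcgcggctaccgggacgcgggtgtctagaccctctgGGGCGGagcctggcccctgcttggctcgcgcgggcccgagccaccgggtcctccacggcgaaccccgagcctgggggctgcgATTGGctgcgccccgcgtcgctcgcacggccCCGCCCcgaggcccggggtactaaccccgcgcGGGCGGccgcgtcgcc
Cbfb start (chr8:105170424-105170673, plus strand): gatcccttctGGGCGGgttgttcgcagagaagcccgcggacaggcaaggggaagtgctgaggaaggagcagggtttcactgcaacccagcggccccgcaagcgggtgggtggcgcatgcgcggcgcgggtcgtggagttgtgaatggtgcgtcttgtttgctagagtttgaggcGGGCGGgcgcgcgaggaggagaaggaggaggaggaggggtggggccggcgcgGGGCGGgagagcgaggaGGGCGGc

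The 4 marked starts differed in base composition. Over 300-base windows (250 before to 50 after the start), the second Runx3 start had a GC content of 77.3% and 45 CpG dinucleotides, and 1.65% of all 32851 promoters had more. Cbfb had 69.7% GC and 30 CpG, and the second Runx1 start 69.0% GC and 35 CpG. The first Runx1 start had 45% GC and 2 CpG, below the medians of 52.7% and 7 over all promoters. Among the 4 starts with H3K4me3 within 1 kb, it was thus the only one whose window was poor in CpG. The H3K4me3 peaks of both genotypes there lay beyond this window, so the bases under them were not counted. The same holds for the cKO peak at the second Runx3 start. The first Runx3 start had 63.7% GC and 8 CpG, and the Runx2 start 45.3% GC and 2 CpG. Among the marked starts, CCAAT boxes were found at both Runx1 starts (2 each) and at the second Runx3 start (1), and GC boxes at Cbfb (4) and the second Runx3 start (3). A CCAAT box was present in 37.4% of all promoters and a GC box in 35.7%. The ETS core CGGAAG (16.9% of all promoters), the GATA core AGATAA (11.2%) and the core of the cAMP response element, TGACG (20.8%), each searched on both strands, were found in none of the 6 windows.

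The first annotated starts of the 3 Runx genes shared a stretch that was not found at the second starts of Runx1 and Runx3. The RUNX core, searched as TGTGGT or TGCGGT on both strands, occurred 2 times at the first Runx1 start, 4 times at the Runx2 start and 2 times at the first Runx3 start. It occurred 0 times at the second Runx1 start, the second Runx3 start and the Cbfb start. Of all promoters, 22.4% held at least 1 core and 2.86% at least 2. An unbroken run of 18 bases, with a pair of cores on the same strand, was common to the 3 first starts. They are shown as 30-base windows, with RUNX cores on either strand in capitals.
Runx1 first start (chr16:92826025-92826054, minus strand): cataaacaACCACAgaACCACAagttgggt
Runx2 start (chr17:44814583-44814612, minus strand): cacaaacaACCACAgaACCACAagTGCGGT
Runx3 first start (chr4:135120503-135120532, plus strand): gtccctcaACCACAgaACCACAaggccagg

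Runx1 and Runx2 shared a longer run of 22 bases in this place. The 18-base run began 26 bases after the Runx1 start and 21 bases after the Runx2 start, but 136 bases before the first Runx3 start. Of 32851 promoters, 4 held the 18-base run, at Runx1, Runx2, Runx3 and Gm16225, a non-coding RNA whose window overlaps that of the first Runx3 start. Same-strand cores at this spacing, their first bases 8 apart, were found in 9 promoters (0.0274%). A match is a string of letters and says nothing of whether a RUNX protein was bound.

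Across the 4 spans there were 47 peaks, of which 43 belonged to the histone marks. H3K27ac had 12 peaks in cKO and 6 in fl LSK cells. Runx1 had 2 in cKO against 1 in fl, Runx2 2 against 1, Runx3 4 against 3, and Cbfb 4 against 1. H3K4me3 had 11 peaks in cKO and 10 in fl LSK cells, and H3K9ac had 0 in cKO and 4 in fl HSC. DEK had 0, 2 and 2 peaks in replicates 1 to 3 of fl HSC. Per Mb of span, cKO H3K27ac reached 11.4 peaks over the 4 genes and 7.95 over all gene spans, and fl H3K27ac 5.72 and 4.50. The larger number of H3K27ac peaks in cKO was thus also seen over all genes, where the cKO list was longer.

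**Figure D1:**
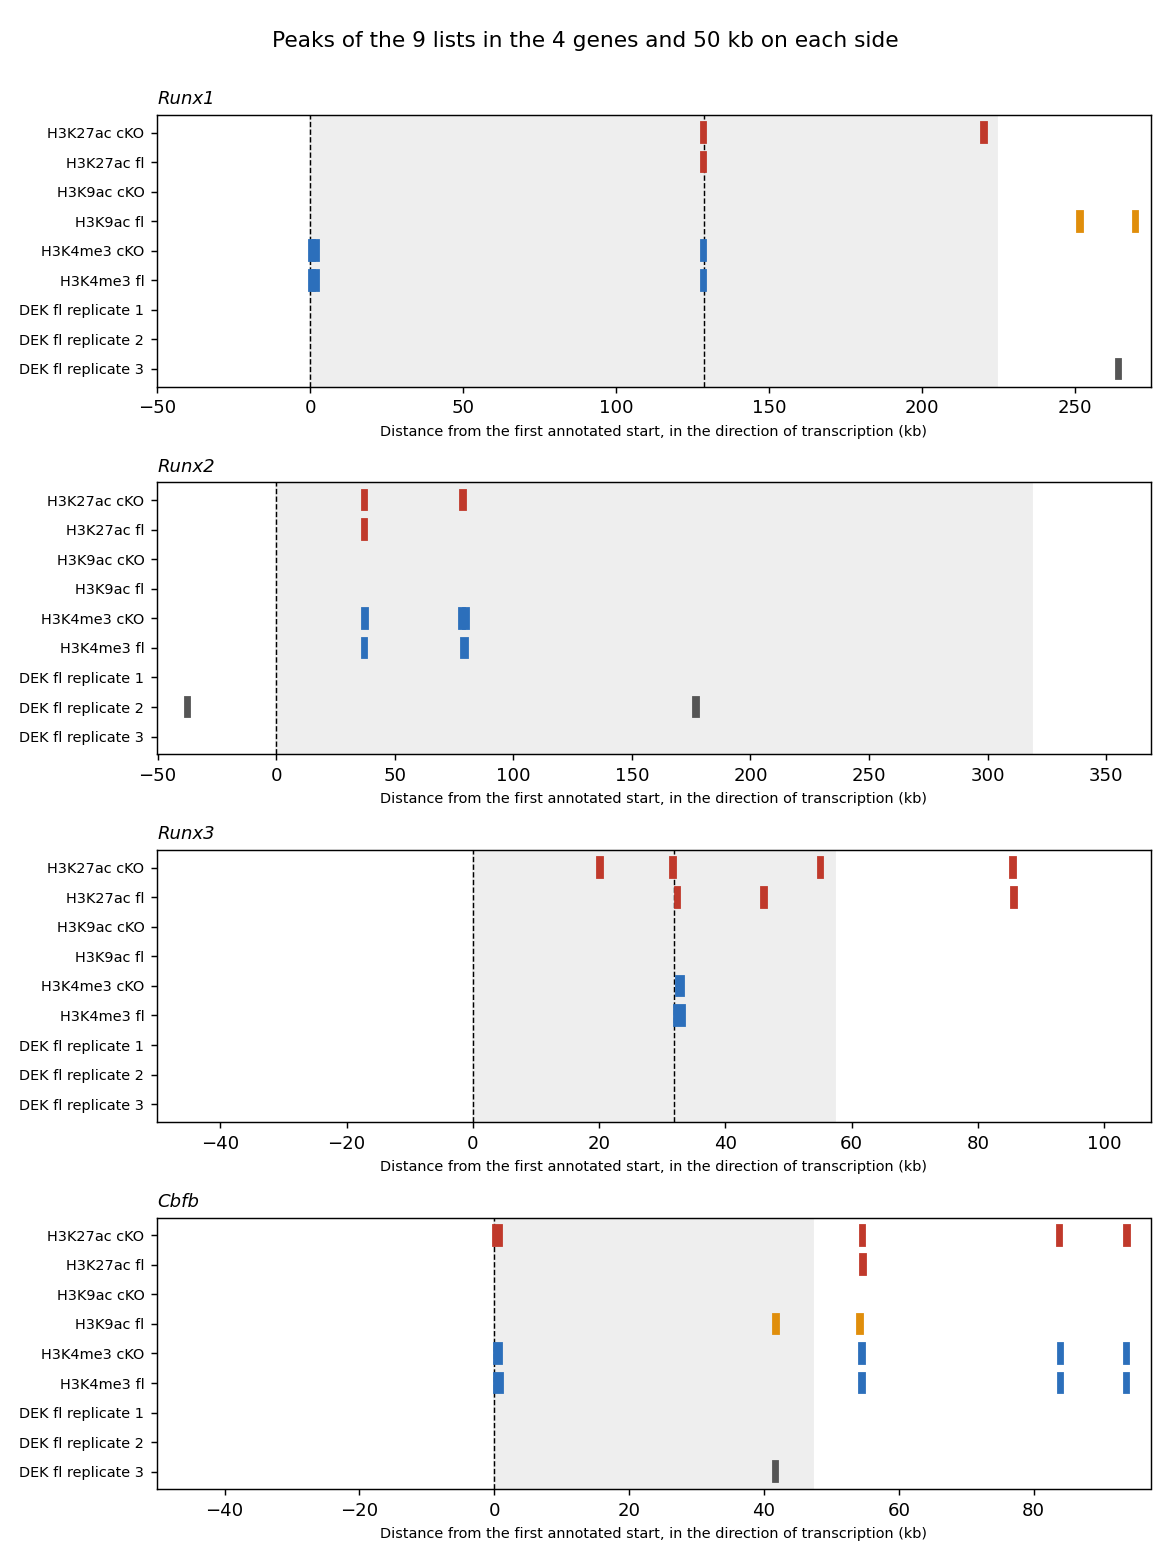
Position of each peak in the spans of Runx1, Runx2, Runx3 and Cbfb, in kb from the first annotated start along transcription, with 1 row per list and cKO above fl. Grey marks the gene, dashed lines the annotated starts, and short peaks are widened to be visible. H3K27ac has 12 peaks in cKO and 6 in fl, and H3K9ac has peaks in fl and 0 in cKO.

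Peaks of a mark that overlapped by at least 1 bp between genotypes were joined into 1 region. H3K27ac gave 14 regions, of which 8 were found in cKO alone, 2 in fl alone and 4 in both. Over all protein-coding genes with the same flanks, 53.2% had a cKO-only region, 6.54% an fl-only region and 55.8% a shared one. All 4 members had at least 1 cKO-only H3K27ac region, and Runx3 alone among them had fl-only regions. Their spans were all longer than the median span of 117 kb over all genes, so they had more room for a region. H3K4me3 gave 10 regions, each found in both genotypes, as were 9410 of all 11175 H3K4me3 regions. Of all genes, 8.46% had an H3K4me3 region in cKO alone, 12.5% one in fl alone, and 65.4% a shared one. H3K9ac gave 4 regions, each in fl alone, against 20.5% of all genes with a cKO-only, 12.7% with an fl-only and 1.99% with a shared region.

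At the starts (within 1 kb), H3K4me3 lay at 4 of 6 and was present in both genotypes at each of them. H3K27ac was present in both genotypes at 2 starts, the second starts of Runx1 and Runx3, and in cKO alone at 1, that of Cbfb. It was found in neither genotype at the first starts of the 3 Runx genes, and H3K9ac and DEK peaks were found at none of the 6. Of all protein-coding genes, 42.9% had H3K4me3 at a start in both genotypes. For H3K27ac, 21.7% had a peak at a start in cKO alone, 0.361% in fl alone and 22.3% in both. H3K9ac at a start was rare in general, with 0.832% of genes in cKO alone, 0.484% in fl alone and 0.0366% in both.

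**Figure D2:**
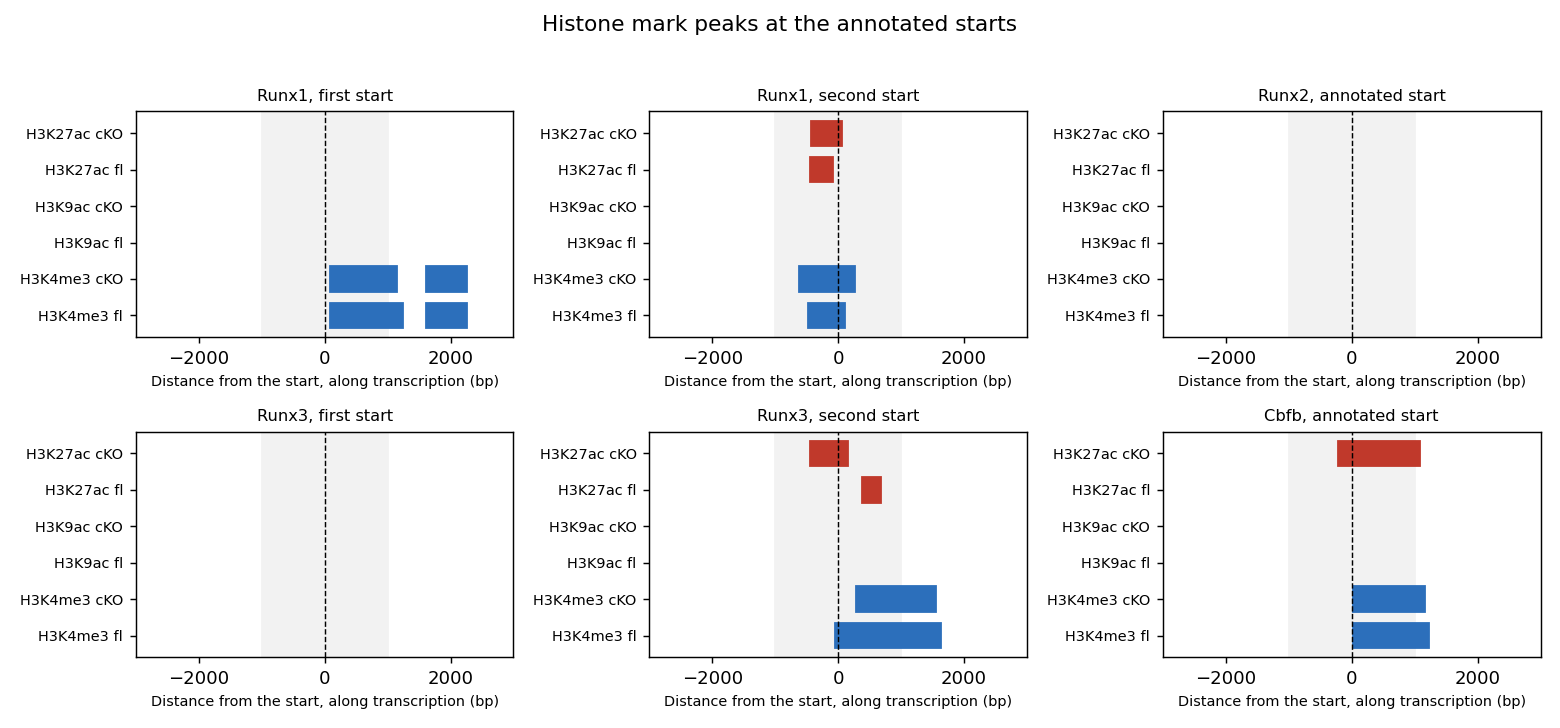
Histone mark peaks within 3 kb of each of the 6 annotated starts, in bp along transcription, cKO above fl, with the 1 kb windows in grey. H3K4me3 sits at 4 starts in both genotypes, whereas H3K27ac sits at the second starts of Runx1 and Runx3 in both and at Cbfb in cKO.

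The first Runx1 start, P1, carried H3K4me3 without H3K27ac in both genotypes. Its H3K4me3 peak had a fold of 7.43 in cKO and 6.85 in fl (the authors' enrichment of a summit above its own library's background, with no meaning across libraries). It stood at rank 2600 of 10159 in cKO and rank 2259 of 10514 in fl, or 25.6% and 21.5% of the way down each list from its strongest peak. Both peaks began just after the start, 79 bp from it in cKO and 86 bp in fl, and reached into the gene. A second H3K4me3 peak, chr16:92823809-92824464, followed in both genotypes with identical ends, at 76.4% of the list in cKO and 41.8% in fl. These 2 regions were the 2 of the 10 H3K4me3 regions that overlapped no H3K27ac peak. In the 128.745 kb between the starts, outside 1 kb of either, there was no H3K27ac, H3K9ac or DEK peak in any list.

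The second Runx1 start, P2, carried both marks in both genotypes. Its H3K27ac peak had a fold of 9.73 in cKO and 8.11 in fl, with summits 220 bp and 205 bp before the start. It lay at rank 8817 of 16331 in cKO and 5966 of 10494 in fl, so near the middle of each list (54.0% and 56.9%). H3K4me3 at P2 had a fold of 8.05 in cKO and 8.80 in fl and stood at 65.1% and 56.1% of its lists. Within each list the first start therefore ranked above the second for H3K4me3 by −log10 q, although only the second had H3K27ac. By fold the order was reversed, with 7.43 at the first and 8.05 at the second start in cKO, and 6.85 and 8.80 in fl. Of 487 protein-coding genes with 2 starts at least 10 kb apart, 12.9% had H3K4me3 at both starts. In 6 of them (1.23%), Runx1 among them, both genotypes counted together, H3K27ac was in addition at the second start and not at the first.

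Away from its starts, Runx1 had few peaks. The 1 distal H3K27ac region, meaning one that lay outside 1 kb of any annotated gene start, was chr16:92605735-92606068, near the 3′ end of the gene. It was found in cKO alone, with a fold of 5.63, at rank 15872 of 16331. Of the weakest 10% of that list, 81.6% were found in cKO alone. A pair of H3K9ac peaks of fl HSC lay downstream of the gene. The nearer, 26.8 kb beyond its end, had a fold of 5.58 and stood at 22.1% of the list. The other, 44.9 kb beyond, had a fold of 2.91 and stood at 73.3%. A peak of the Cbfb span with the same fold and −log10 q (1.64) stood at 94.3%, so this rank is loose. In their rank classes of 10%, 80.2% and 98.6% of fl H3K9ac peaks were found in fl alone. No H3K9ac peak of cKO HSC lay in the span.

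Runx2 had no peak of any list at its annotated start. Both genotypes had instead a broad H3K4me3 region inside the gene, chr17:44733815-44736610, which began 78.0 kb downstream of that start. Since 1 start of Runx2 was used, an inner start such as its P2 could lie in this region, which is called distal here. In cKO it was called as 2 peaks of 1419 bp and 854 bp, set 400 bp apart and covering 2673 bp from first to last base. Their folds were 5.05 and 4.10, at 36.3% and 59.3% of the cKO list. In fl it was 1 peak of 2796 bp with a fold of 5.72, at 22.7% of the list, and 10 of the 10514 fl peaks were wider. An H3K27ac peak of 1215 bp, chr17:44735252-44736466, lay on this region in cKO alone. Its fold was 7.37 and its rank 10342 of 16331 (63.3%), and of the 10% of cKO peaks in the same rank class 60.9% were found in cKO alone. It was wide for its list, since 2.17% of cKO H3K27ac peaks were wider.

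The Runx2 gene also holds the start of Supt3, a subunit of the SAGA coactivator complex that is read from the opposite strand. H3K27ac lay there in both genotypes, with a fold of 12.0 at 22.1% of the cKO list and 7.42 at 65.6% of the fl list. H3K4me3 there had a fold of 9.38 in cKO and 11.0 in fl. Supt3 thus had both marks in both genotypes 37.5 kb from a Runx2 start that had neither. No H3K9ac peak lay in the Runx2 span.

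Runx3 had no peak at its first start, and its H3K4me3 lay at the second. H3K4me3 at the second start had a fold of 10.5 in cKO and 10.9 in fl, at rank 300 of 10159 and rank 346 of 10514. It thus stood at 2.95% and 3.29% of the lists, higher than any other peak of the 4 genes in those lists, and was 1270 bp wide in cKO and 1693 bp in fl. Of the 487 genes with a pair of starts, 10.7% had H3K4me3 at the second and not at the first.

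H3K27ac lay at the second Runx3 start in both genotypes, but at places that did not overlap. In cKO the peak ran from 448 bp before to 154 bp after the start, with a fold of 11.7 at rank 4704 of 16331 (28.8%). In fl it ran from 375 bp to 675 bp after the start, with a fold of 5.51 at rank 10195 of 10494 (97.2%), among the weakest of its list. Its −log10 q was 4.69, so with a minimum of 5 it was no longer counted and this start was cKO only. The 2 peaks were 220 bp apart, so they count as a cKO-only and an fl-only region although the start is marked in both. In the 10% of the cKO list that holds the cKO peak, 20.1% of peaks were found in cKO alone. In the weakest 10% of the fl list, 15.4% were found in fl alone. Where peaks up to 500 bp apart were joined, an alternative chosen after this pair had been seen, they became 1 shared region.

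**Figure D3:**
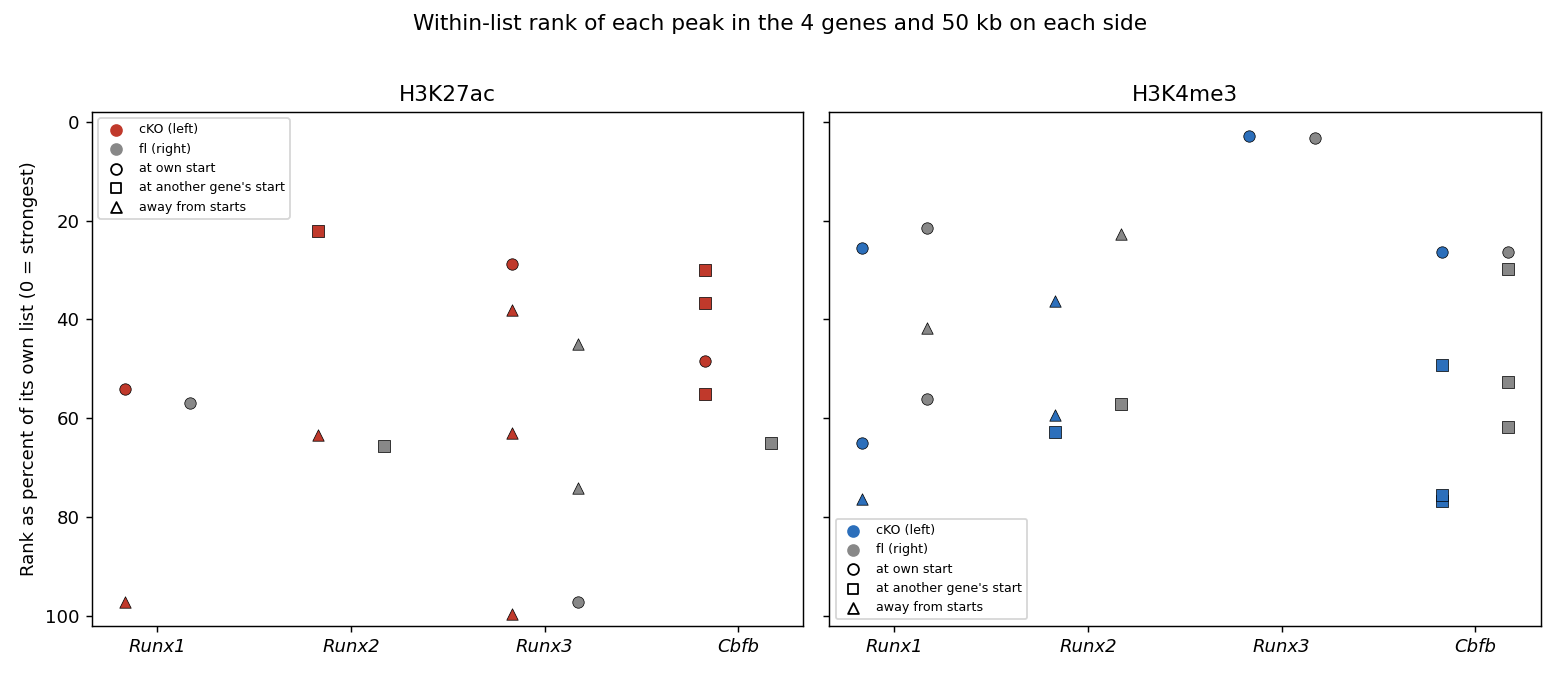
Rank of each H3K27ac (left) and H3K4me3 (right) peak of the 4 spans as a percent of its own list, with the strongest peak at 0 at the top, cKO left of fl for each gene. Runx3 has the best ranked H3K4me3 peak in both genotypes, at 2.95% in cKO and 3.29% in fl, and its H3K27ac peak at a start stands at 28.8% in cKO and 97.2% in fl.

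Runx3 also had more distal H3K27ac regions than the other 3 genes, with 4 distal regions against 1 in Runx1, 1 in Runx2 and 0 in Cbfb. That is 2.54 regions per 100 kb, and 0.621% of all protein-coding genes had a higher density. At least 1 distal region was found in 30.9% of genes and at least 4 in 0.694%. Over the 4 genes, the 6 distal regions were 4 in cKO alone, 1 in fl alone and 1 in both, and the 1 in Runx2 is the peak on its inner H3K4me3 region. With lists of equal length, 2 were in cKO alone. Of all genes, 14.7% had a distal region in cKO alone, 4.90% in fl alone and 16.1% in both.

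The 4 distal Runx3 regions differed in rank. The shared one, chr4:135206019-135206572, lay 28.0 kb beyond the 3′ end of the gene, with a fold of 12.4 in cKO and 9.08 in fl, at 38.1% and 44.9% of the lists. Inside the gene, chr4:135140598-135140977 lay between the starts and was found in cKO alone, with a fold of 10.0 at 63.0% of the list. In its rank class of 10%, 60.9% of cKO peaks were found in cKO alone. The region chr4:135175537-135175897, near the 3′ end of the gene, was also cKO only, with a fold of 4.83 at rank 16265 of 16331, close to the bottom of the list. Among the weakest 10% there, 81.6% of peaks were found in cKO alone. The fl-only region, chr4:135166595-135166897, had a fold of 7.08 at 74.2% of the fl list, in a rank class of 10% where 23.3% of peaks were found in fl alone. None of the 4 overlapped a peak of H3K4me3, H3K9ac or DEK. No H3K9ac or DEK peak lay in the Runx3 span.

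Cbfb had no fl H3K27ac peak at its start, unlike the second Runx1 start. The second Runx3 start differed from Cbfb here only by its weak fl peak, which was lost with a −log10 q of at least 5. The peak at the Cbfb start, chr8:105170466-105171759, was found in cKO alone, with a fold of 8.25 at rank 7905 of 16331 (48.4%). At 1294 bp it was wide for its list, since 1.48% of cKO peaks were wider. In that 10% of the list, 41.6% of cKO peaks were found in cKO alone. H3K4me3 there had a fold of 9.50 in cKO and 9.18 in fl, at 26.4% and 26.3% of the lists. Among the 9399 genes with H3K4me3 at a start in both genotypes, 33.0% had H3K27ac at a start in cKO alone, 0.532% in fl alone, 48.9% in both and 17.6% in neither.

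The neighbours of Cbfb also had H3K4me3 in both genotypes, with a mixed H3K27ac pattern. H3K4me3 lay in both genotypes at D230025D16Rik, at B3gnt9 (a glycosyltransferase) and where Tradd, an adaptor of TNF receptor signalling, and the F-box gene Fbxl8 meet. For the last 3 genes the window was set at both gene ends. In the same order of places, H3K4me3 stood at 49.3%, 76.8% and 75.5% of the cKO list, and at 29.8%, 61.8% and 52.7% of the fl list. H3K27ac at D230025D16Rik was present in both genotypes, with a fold of 13.8 in cKO and 7.69 in fl. At B3gnt9 it was found in cKO alone, with a fold of 12.4 at 30.0% of the list, and at Tradd and Fbxl8 likewise, with a fold of 8.87 at 55.1%. In their rank classes of 10%, 30.3% and 50.2% of cKO peaks were found in cKO alone. Of the 10 H3K4me3 regions in the 4 spans, 8 overlapped an H3K27ac peak in cKO and 4 in fl. Over all 11175 H3K4me3 regions these shares were 71.8% and 40.5%.

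Inside Cbfb, 41.6 kb after the start, lay the strongest H3K9ac peak of the 4 genes. This peak of fl HSC, chr8:105212129-105212787, had a fold of 13.5 and stood at rank 110 of 2172 (5.06%). No H3K9ac peak of cKO HSC lay there, and no H3K27ac or H3K4me3 peak of either genotype. Of the strongest 10% of fl H3K9ac peaks, 43.3% were found in fl alone. A weaker H3K9ac peak of fl HSC, with a fold of 2.91 at 94.3% of the list, lay at D230025D16Rik. Its fold and −log10 q (1.64) equalled those of the farther peak downstream of Runx1, at 73.3%. The ranks and rank classes of this pair therefore do not order them by strength. Among the weakest 10% of that list, 97.7% of peaks were found in fl alone. Over all gene spans there were more H3K9ac peaks per Mb in cKO (1.59) than in fl (1.00), while the 4 genes had 0 in cKO and 3.82 in fl.

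The strongest DEK peak of the 4 genes lay on the same spot. It came from replicate 3, chr8:105212109-105212629, with a fold of 10.8 at rank 437 of 6147 (7.11%), and overlapped the fl H3K9ac peak by 501 bp. Replicates 1 and 2 had no peak there. Row names of DEK replicate 3 carry a Flag stem and share a stem for removed duplicates with both H3K9ac lists, so its antibody is not certain and its label was followed. Of all replicate 3 peaks 6.25% overlapped an fl H3K9ac peak, and of the strongest 10% of them 31.3%. Whether this overlap reflects DEK itself was not tested.

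The other 3 DEK peaks were weaker and away from starts. Replicate 3 had one 39.5 kb downstream of Runx1, with a fold of 4.10 at 79.0% of its list. Replicate 2 had one inside Runx2, chr17:44637203-44637863, with a fold of 4.83 at 62.8%, and one 36.9 kb upstream of that gene, with a fold of 4.11 at 87.6%. The 4 spans held 1.33 ± 1.15 DEK peaks per library (SD, n = 3), and no position was called in more than 1 library. Of all genes, 38.5% had a DEK peak of some library in their span (11.0%, 11.7% and 26.2% in replicates 1 to 3), and 0.827% had one at a start. Per Mb, the 4 genes had 0, 1.91 and 1.91 DEK peaks and all gene spans 0.804, 0.855 and 2.38.

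Per 100 kb, the 4 genes lay at different places among all protein-coding genes. For cKO H3K27ac, Cbfb had 2.72 peaks and Runx3 2.54, and 16.3% and 18.7% of genes were denser. Runx1 had 0.616 and Runx2 0.478, below the median gene at 0.965. In fl, Runx3 had 1.91 and Cbfb 0.679, against 0.308 in Runx1, 0.239 in Runx2 and 0.640 in the median gene. For H3K4me3, Cbfb had 2.72 in both genotypes and Runx1 0.924, above the medians of 0.860 in cKO and 0.880 in fl. Runx3, with 1 strong H3K4me3 peak, had 0.636 in both genotypes, and Runx2 had 0.716 in cKO and 0.478 in fl. The order thus put the spans of Cbfb and Runx3 above those of the long genes Runx1 and Runx2 for H3K27ac. These densities count peaks at the starts of neighbouring genes. In the Cbfb span, every H3K27ac and H3K4me3 peak outside the Cbfb start lay at D230025D16Rik, at B3gnt9, or at Tradd and Fbxl8. The only fl H3K27ac peak of the Runx2 span lay at Supt3.

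**Figure D4:**
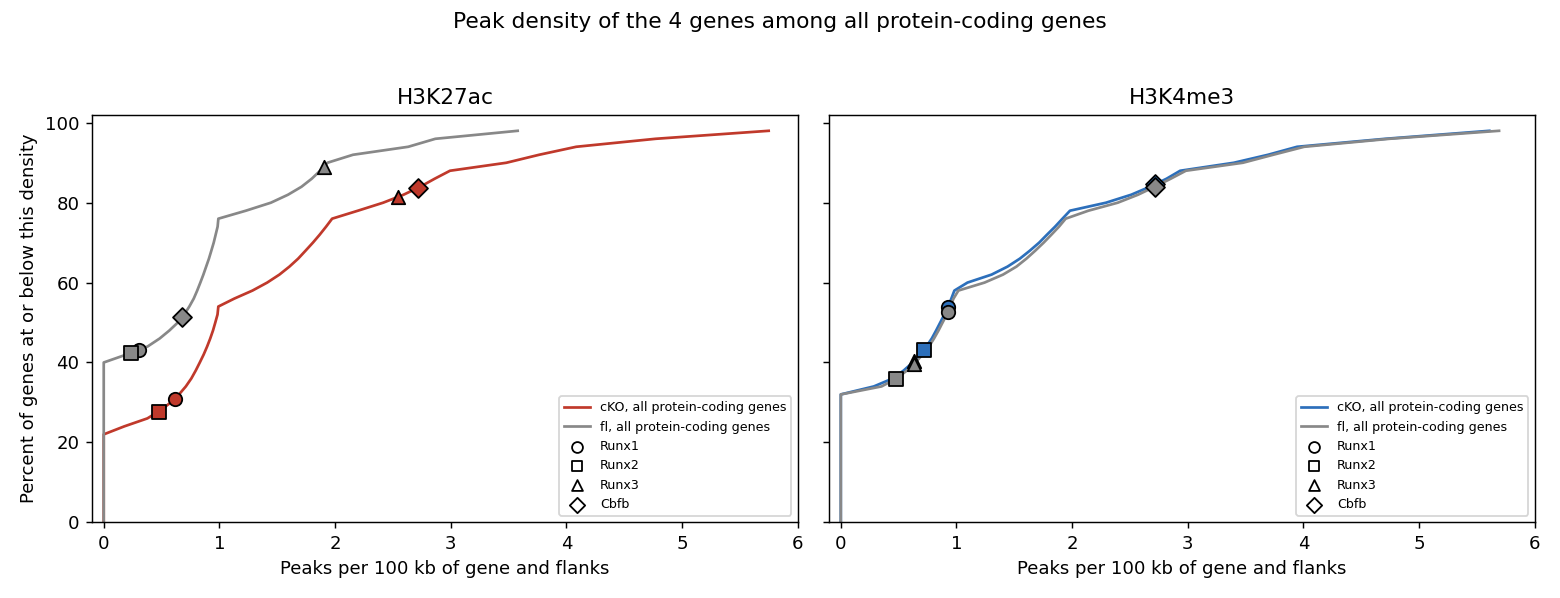
Share of all protein-coding genes at or below a given number of H3K27ac (left) or H3K4me3 (right) peaks per 100 kb of gene and flanks, as lines for cKO and fl, with the 4 genes as symbols. In cKO, Cbfb at 2.72 and Runx3 at 2.54 H3K27ac peaks lie above Runx1 at 0.616 and Runx2 at 0.478, and in fl Runx3 at 1.91 lies above the other 3 genes. Peaks at the starts of neighbouring genes are counted.

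The genes whose starts were marked most like those of each member were found from the 6 histone lists, as the mean absolute difference in rank percentile of the best peak at a start. Nearest to Runx1 were Mrpl15, a mitochondrial ribosomal protein, at 1.25 percentile points, Ubap1 at 1.59 and Lrrfip1 at 2.52. For Runx1 the best H3K4me3 peak was at the first start and the best H3K27ac peak at the second. Its values here thus join 2 starts, and neither start alone had this combination. Nearest to Runx3 were Zdhhc17, a palmitoyltransferase, at 0.633, Tomm34 at 0.810 and Stat5b, a cytokine signalling factor, at 0.894. Nearest to Cbfb were Itpkb, an inositol trisphosphate kinase, at 0.908, Atxn1 at 0.952 and Srsf6, a splicing factor, at 1.03. Between members the difference was 9.07 for Runx1 and Cbfb, 11.5 for Runx3 and Cbfb, and 17.7 for Runx1 and Runx3. From Runx2 it was 40.4 for Runx1, 44.6 for Runx3 and 33.1 for Cbfb. The median gene differed from Runx1 by 38.4, from Runx3 by 42.9 and from Cbfb by 31.7. Runx2, with no peak at its annotated start, was identical to 10046 other genes.

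Genes of RUNX partners had H3K27ac at a start in cKO more often than in fl, as did all genes. Of 32 partner genes, 17 (53.1%) had it in cKO alone, 0 in fl alone, 11 in both and 4 (Runx1t1, Ets1, Fli1 and Lmo2) in neither, beside 21.7%, 0.361% and 22.3% of all genes. The promoter table had a start for 24 of the 32, and for the others, these 4 and Tle5 among them, both gene ends were searched. The 12 best ranked cKO-only genes included Kmt2a, the histone methyltransferase MLL, with a fold of 12.7 at 17.3% of the list. Co-repressors of the ETO family followed, Cbfa2t2 with a fold of 11.5 and Cbfa2t3 with 10.9. The kinase Hipk2 had a fold of 10.0, and the ubiquitin ligases Smurf2 and Smurf1 had 10.9 and 8.50. The Groucho family genes Tle1 and Tle5 had folds of 8.74 and 6.54, and the H3K9 methyltransferase Suv39h1 had 10.2. Among blood transcription factors Tal1 had 9.65 and Gata2 4.83, and the Hippo coactivator Wwtr1 had 7.20. With the cKO list cut to the 10494 strongest peaks, the length of the fl list, 8 of the 17 stayed in cKO alone, which is 25.0% of the partner genes beside 11.4% of all genes. H3K4me3 lay at a start in both genotypes in 26 of the 32 partner genes. Of all 9399 genes with H3K4me3 so placed, 33.0% had H3K27ac at a start in cKO alone and 48.9% in both, in the full lists.

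Lmo2, Fli1 and Ets1, which act with RUNX1 in blood stem cells, had no H3K27ac at either gene end but had regions away from the ends, which are counted as distal here although an inner start could lie there. Lmo2 had 2, both shared, Fli1 had 1 shared and 1 cKO only, and Ets1 had 1 shared. Tal1 had 2 and Gata2 1, each in cKO alone. For H3K4me3, 26 of the 32 partner genes (81.2%) had a peak at a start in both genotypes, beside 42.9% of all genes. Lmo2 had one in cKO alone and Yap1 in fl alone, beside 1.62% and 2.76% of all genes, a pair named after their values were seen.

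Of 30 genes known as RUNX targets in blood cells, 11 (36.7%) had H3K27ac at a start in cKO alone, 0 in fl alone, 1 (3.33%) in both and 18 in neither, beside 21.7%, 0.361% and 22.3% of all genes. The promoter table had a start for 23 of the 30, and the others, Cebpe and Cd4 among them, were searched at both gene ends. The shared one was Ccnd3, a cyclin, with a fold of 15.9 in cKO and 8.42 in fl. Among the cKO-only targets were Meis1, a stem cell transcription factor, with a fold of 9.71, Cd34, a progenitor surface protein, with 8.43, and Myb, a factor of progenitor growth, with 6.90. Myeloid regulators among them were Cebpa with 7.30, Cebpe with 7.50 and Gfi1 with 6.48. Lymphoid genes among them were Cd4 with 10.3 and Ebf1, a B cell factor, with 8.58. The others were Cdkn1a, a cell cycle inhibitor, with 6.03, Myl9 with 6.44 and Hmga2 with 5.50. With lists of equal length, 2 of the 11 stayed in cKO alone, Cebpa and Cd4. That is 6.67% of the target genes beside 11.4% of all genes, so the order of the 2 shares turned round.

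For H3K4me3, 13 of the 30 target genes (43.3%) had a peak at a start in both genotypes. A further 1 had it in cKO alone and 4 in fl alone, beside 42.9%, 1.62% and 2.76% of all genes. The share marked in both was thus near that of all genes. The 1 in cKO alone was Itgal, searched at both gene ends and named after its values were seen. H3K9ac was found at the start of 0 partner and 0 target genes in either genotype.

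**Figure D5:**
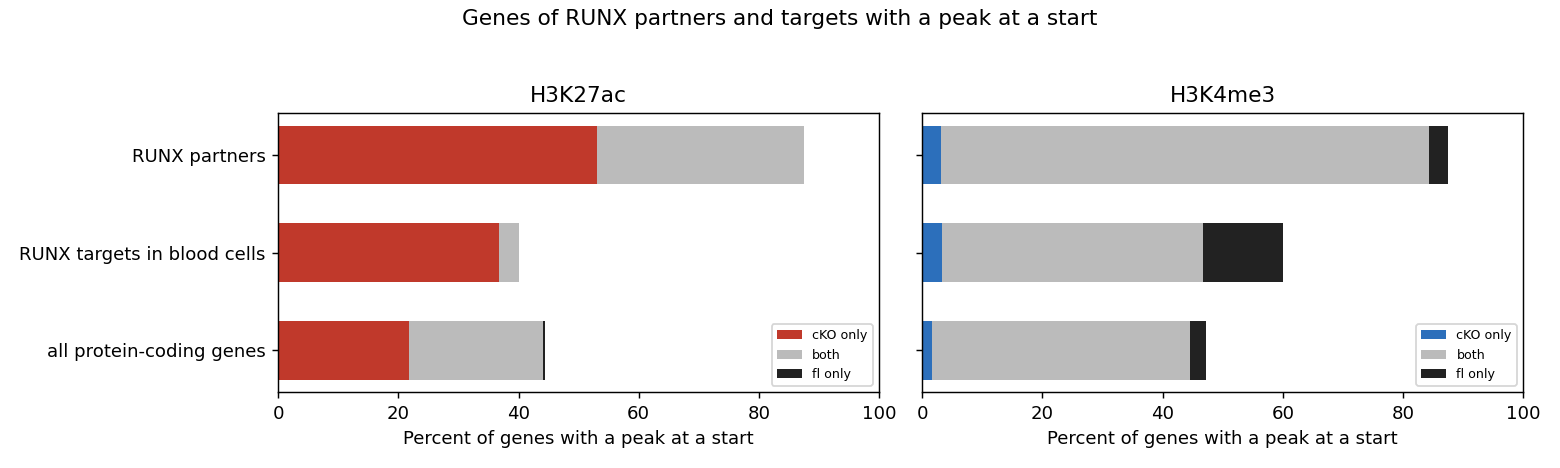
Percent of RUNX partner genes (32), RUNX target genes (30) and all protein-coding genes (21887) with an H3K27ac (left) or H3K4me3 (right) peak within 1 kb of a start, split into cKO only, both and fl only. H3K27ac in cKO alone takes 53.1% of partners, 36.7% of targets and 21.7% of all genes, against 25.0%, 6.67% and 11.4% with lists of equal length (not drawn).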

How the data were processed

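The labels' protocols describe CUT&Tag on sorted cells. Tools named in the submitters' processing notes are Bowtie2, MACS2 and Picard, and the build is mm10. Their versions and settings were not given in the sources used here, nor was any control track. The authors deposited 1 peak list per library, called per sample, and no label says whether the 3 DEK libraries came from separate animals. Each deposited score is the −log10 p times 10 with its decimals dropped. The deposited fold is a ratio of the summit over the caller's background within a library. Every −log10 q-value and −log10 p-value is the authors'. Peaks were ranked by −log10 q, with ties broken by −log10 p, then fold, then chromosome and position. Heights were not compared between libraries. In the DEK lists 16 mitochondrial rows and 11 irregular rows were left out (the irregular ones by a rule made after seeing them), and 0 of the irregular rows lay in the 4 spans. Starts came from the RefSeq promoter table (17492 of 21887 coding genes), and both gene ends stood in for the other 4395. Counts, ranks and shares were computed with Python 3.11.15, numpy 2.4.6, pandas 2.3.3 and matplotlib 3.10.9. The joining of peaks into regions and their overlap with spans were checked on simulated peaks, and ranks were not. The 4 genes and all lists were chosen with earlier results of these data known. Named genes were the 4 members, genes with a peak at their start in the spans, the 3 most alike per member, and up to 12 list genes per direction by H3K27ac rank.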

Additional observations from a re-analysis of the deposited data

How the results depend on the processing

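Each of 26 counts was recomputed under alternatives with other peak thresholds, flanks, start windows, list lengths, overlap rules and with irregular rows kept, and 101 of 116 values stayed within 1.5 times the main count. Counts that were 0 in the main setting stayed 0 under every alternative and are part of the 101. Such counts could not fall, so the 101 overstates how steady the other counts were. With a −log10 q of at least 5, fl-only H3K27ac regions numbered 1 in place of 2, and the weak fl peak at the second Runx3 start dropped out, so that 2 starts were cKO only and 1 was in both. The same threshold left 2 fl-only H3K9ac regions and 1 DEK peak. Joining peaks up to 500 bp apart, chosen after seeing the data, gave 1 fl-only H3K27ac region. With no flank there were 2 shared H3K27ac regions, 1 fl-only H3K9ac region and 2 DEK peaks, and with 10 kb flanks 2 fl-only H3K9ac regions. With lists of equal length, 2 distal H3K27ac regions, 8 partner genes and 2 target genes were cKO only. Leaving out 1 DEK replicate at a time gave 2 to 4 peaks: 4 without replicate 1, 2 without replicate 2 and 2 without replicate 3. No paired analysis was possible because each genotype has 1 library per mark. Depth is unknown, so a site without a peak may have gone undetected.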
